A study of Cucumis sativus var. sativus with 11 samples.

Results

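In the young cucumber (Cucumis sativus) ovary, 79 of 23248 genes were set apart by a high level 1 day after anthesis when no pollen had been received. They were chosen on measured values. On the scale of log2(normalized count + 1), a gene had to lie at least 2-fold higher in the unpollinated mean than in the mean of each other group (anthesis, pollinated, inhibited). Its mean normalized count in unpollinated ovaries had to be 50 or more, and its lowest unpollinated library had to exceed the highest of the other 8 libraries. Its pollinated mean was also not allowed to be more than 2-fold below anthesis. The higher level without pollination is therefore a property of the choice, and it is described here with no test.

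The ovary of a flower at anthesis is held at rest, and fruit set normally starts when pollination and fertilisation release growth, in which auxin and gibberellin act as signals. In a line that is not parthenocarpic, an ovary left without pollen stops growing and is later shed or withers. Fruits already developing on the same cucumber plant can also hold back younger ovaries that did receive pollen, an effect known as correlative or first-fruit inhibition.

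RNA was sequenced from individual ovaries of the gynoecious (female-flowering), non-parthenocarpic line Elem Female, grown in a net house and sampled in the early morning. The groups were ovaries on the day of anthesis (n = 3), ovaries 1 day after pollination (n = 3), ovaries 1 day past anthesis with no pollination (n = 3), and ovaries 1 day after pollination on plants that carried older fruits, called inhibited (n = 2). All plants were of this single line, and pollen came from a pollinator genotype that the labels do not name. The labels do not say whether 1 plant gave several ovaries, and the p-values below reflect only how far these libraries vary. There was no group that combined older fruits with a lack of pollen. The files give genes by identifier only, and 0 of the identifiers matched the 23999 genes of the reference table, so the function of each gene is not stated and the tissue could not be checked against markers. Libraries were made from whole tissue, in which fewer cells of a type and less RNA per cell cannot be told apart.

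Each library held between 18158218 and 26456643 reads in genes. Reads that could not be assigned to a gene (the unassigned share) made up 16.8 to 24.8% in pollinated replicates 1 and 3, unpollinated replicate 3 and inhibited replicate 2, and 10.8 to 13.3% in the other 7 libraries. All anthesis and pollinated libraries and unpollinated replicate 1 carried 1 form of the second index sequence, and unpollinated replicates 2 and 3 and both inhibited libraries carried the other. Anthesis replicate 3 was the only library of lane 2.

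The higher level of the 79 genes in unpollinated ovaries ranged from just past the threshold to more than 10-fold. Against anthesis the unpollinated mean was 2.02-fold to 34.0-fold higher, with a median of 3.45-fold. Against pollinated ovaries of the same age the range was 2.02-fold to 24.3-fold and the median 2.94-fold. Against inhibited ovaries it was 2.0-fold to 12.3-fold with a median of 2.99-fold. These 3 comparisons share the same unpollinated libraries and are given side by side as a description. A margin of 4-fold or more over the highest of the other group means was reached by 12 of the 79 genes, one of 3-fold or more by 23, and one of 8-fold by 0. Of the 16028 genes with an unpollinated mean of 50 or more, the lowest unpollinated library exceeded all other libraries in 1762 (11%), which shows how many genes met that single condition.

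**Figure D1:**
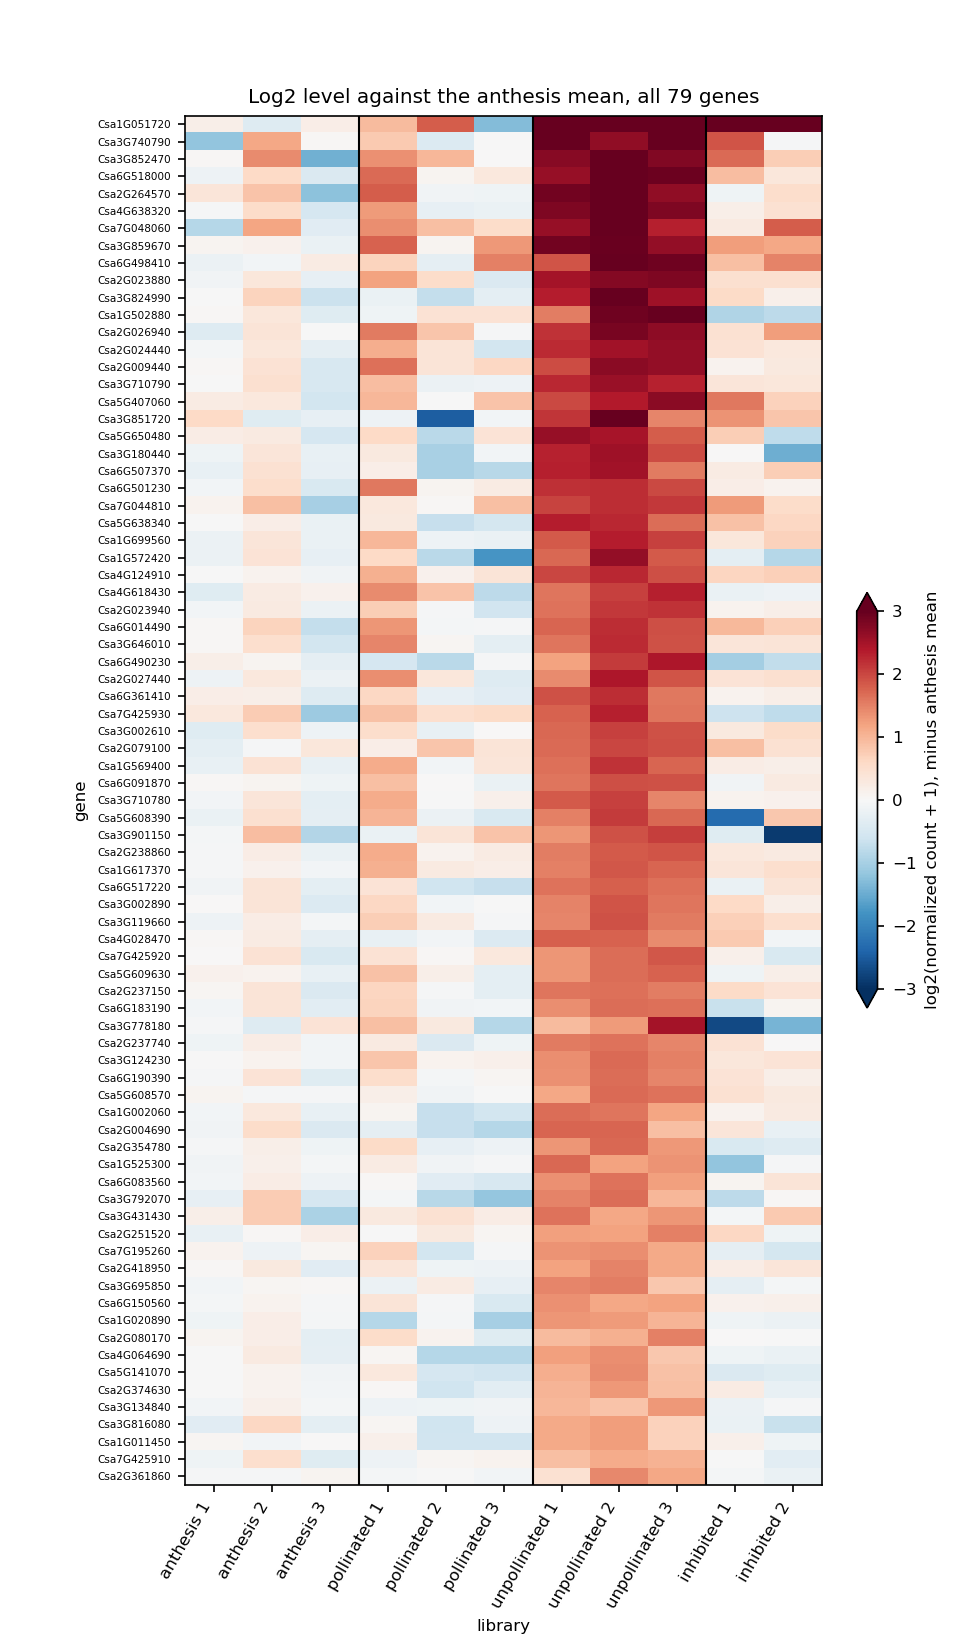
Log2(normalized count + 1) of each of the 79 genes (rows, in order of the difference between unpollinated and anthesis means) in each of the 11 libraries (columns, grouped by vertical lines), less the gene's anthesis mean; the colour scale ends at -3 and 3. The 3 unpollinated columns are red in every row, as the choice requires, and pollinated replicate 1 and anthesis replicate 2 are redder than the other libraries of their groups in most rows.

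Some genes lay close to the thresholds. The members nearest to the threshold against anthesis were Csa2G361860 and Csa7G425910, both 2.02-fold higher without pollination, while Csa5G606730 and Csa5G615830 met every other condition and stood at 1.92-fold and 1.87-fold. Against pollinated ovaries Csa7G425910 (2.02-fold) and Csa3G431430 (2.07-fold) lay just inside, and Csa3G462680 (1.99-fold) and Csa3G143510 (1.98-fold) just outside. Against inhibited ovaries Csa2G418950 (2.0-fold) and Csa1G011450 (2.01-fold) were inside and Csa2G000630 (2.0-fold) and Csa1G540370 (1.99-fold) outside. In all, 40 genes failed only the condition against inhibited ovaries, 28 only that against pollinated ovaries and 12 only that against anthesis.

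Among the groups the choice placed low, each pair of means lay within 1.5-fold for most of the 79 genes, with the fewest for inhibited ovaries against anthesis. The pollinated mean lay within 1.5-fold of anthesis for 64 genes, 1.5-fold or more above it for 10 and 1.5-fold or more below it for 5. The median difference between pollinated ovaries and anthesis was 0.13 on the log2 scale, and the extremes were Csa3G851720 at -0.90 and Csa3G859670 at 1.06. Against anthesis, the inhibited mean lay within 1.5-fold for 55 genes, 1.5-fold or more above for 16 and 1.5-fold or more below for 8, with a range from -2.04 to 3.38 (log2). Against pollinated ovaries it lay within 1.5-fold for 63 genes, above for 8 and below for 8. The inhibited mean was the highest of the 3 for 42 genes, the pollinated mean for 25 and the anthesis mean for 12. The choice limits all 3 groups from above, and it also limits how far the pollinated mean can lie below anthesis. These levels are therefore partly set by it.

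Individual ovaries within these groups did not hold the genes at one level. Relative to the anthesis mean, the median of the 79 genes was -0.04, 0.31 and -0.24 (log2) in anthesis replicates 1, 2 and 3. It was 0.61, -0.05 and -0.10 in pollinated replicates 1, 2 and 3, and 0.21 and 0.18 in the inhibited libraries. Unpollinated replicates 1, 2 and 3 had medians of 1.62, 2.0 and 1.75. Pollinated replicate 1 and anthesis replicate 2 thus stood above the other libraries of their groups, though below every unpollinated library, as the rule demands. The medians of all 16028 genes past the floor lay between -0.02 and 0.01 in each library.

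**Figure D2:**
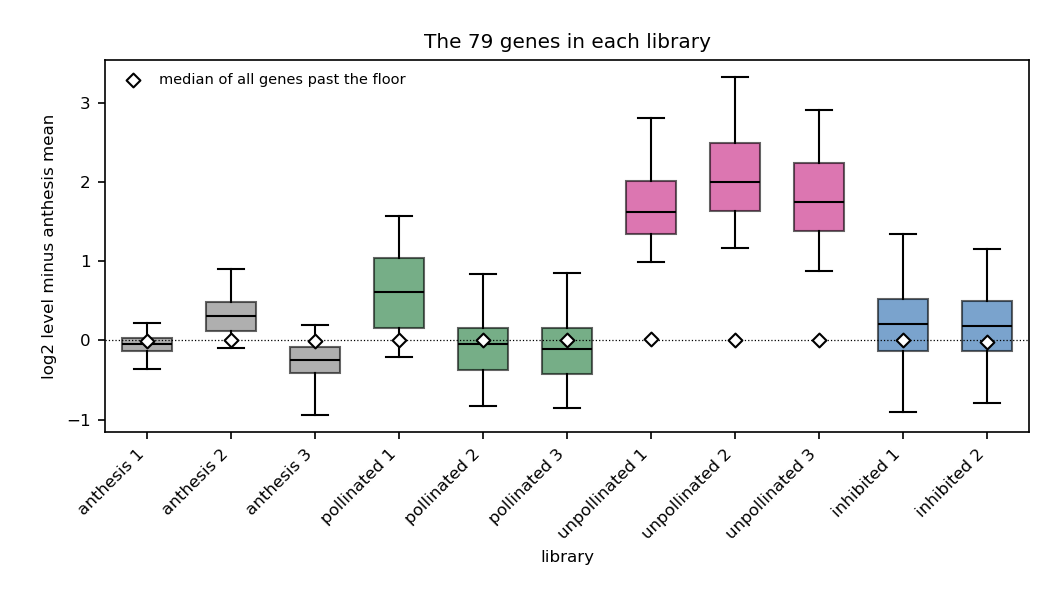
Log2 level less the gene's anthesis mean for the 79 genes in each library; boxes span the quartiles, the line is the median, whiskers reach the 5th and 95th percentiles, and diamonds give the median of all genes with an unpollinated mean of 50 or more. Medians lie between 1.62 and 2.0 in unpollinated libraries, at 0.61 in pollinated replicate 1 and at 0.31 or below in the other 7 libraries.

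The order of replicates within a group took no part in the choice, apart from limits on the lowest unpollinated library and the highest library of the other groups. Pollinated replicate 1 was the highest of the 3 pollinated libraries for 63 of the 79 genes (79.7%), against 39.1% of the 16028 genes past the floor. It exceeded the mean of pollinated replicates 2 and 3 by 1.5-fold or more for 52 of the 79 genes (65.8%), against 2.56% of genes past the floor. Anthesis replicate 2 was the highest anthesis library for 66 genes (83.5% against 36.5%) and lay 1.5-fold or more above the mean of the other two for 30 genes (38.0% against 2.64%). Unpollinated replicate 2 was the highest of its group for 53 genes (67.1% against 29.3%), whereas the inhibited libraries shared the higher place almost evenly, with 40 and 39 genes. In 60 genes (75.9%, against 30.3% of genes past the floor) pollinated replicate 1 and anthesis replicate 2 both lay above the mean of the other two libraries of their group, which is a looser condition than being the highest. These shares are descriptions of single libraries and carry no test. The 79 genes were chosen to differ between groups and the genes past the floor were not. How far this sets the contrast between their shares was not tested. The unassigned share was 21.1, 12.4 and 20.5% in pollinated replicates 1, 2 and 3, and 11.6, 10.8 and 13.3% in anthesis replicates 1, 2 and 3. Its part in this order was not tested.

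The genes with the widest gap between the lowest unpollinated library and the highest of all others were led by Csa3G824990. Its normalized counts were 338, 532 and 384 in unpollinated replicates 1, 2 and 3, against 64.6, 105 and 41.3 at anthesis, 57.2, 39.3 and 53.5 after pollination and 97.6 and 72.7 in inhibited ovaries. The lowest unpollinated library was 3.21-fold above the highest other one, which was anthesis replicate 2, and the unpollinated mean was 8.17-fold above the pollinated mean. Csa3G180440 had 243, 285 and 189.9 without pollination, 44.0, 62.2 and 41.3 at anthesis, 59.7, 23.9 and 45.5 with pollination and 48.8 and 16.9 in inhibited ovaries. The gap of this gene was 3.02-fold, and pollinated and inhibited libraries overlapped.

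Csa4G638320 held nearly the same level in the 3 unpollinated libraries, at 949.8, 1101 and 946, with 131, 199.9 and 94.5 at anthesis, 331, 113 and 119 after pollination and 152 and 186 in inhibited ovaries. Pollinated replicate 1 was the highest library outside the unpollinated group and lay 2.85-fold below the lowest unpollinated one. Csa2G023880 was at 1301, 1564 and 1601 without pollination, 215, 291 and 194 at anthesis, 531, 337 and 171 after pollination and 322 and 323 in inhibited ovaries. Its pollinated libraries spanned the widest range of the 3 low groups, with replicate 1 on top. Csa6G517220 was among the steadiest members in unpollinated ovaries, at 1276, 1423 and 1308, and stood at 384, 541 and 337 at anthesis, 549, 274 and 257 after pollination and 359.5 and 541 in inhibited ovaries. The remaining genes of the first 8 by this gap were Csa3G710790, Csa3G002610 and Csa2G024440. Csa3G002610 had a mean of 305 ± 35.1 without pollination, against 83.61 ± 28.04 at anthesis, 89.3 ± 24.7 after pollination (SD, n = 3 each) and 109 ± 13.2 in inhibited ovaries (SD, n = 2). All 8 genes had every anthesis, pollinated and inhibited library below the lowest unpollinated one, as the rule demands.

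**Figure D3:**
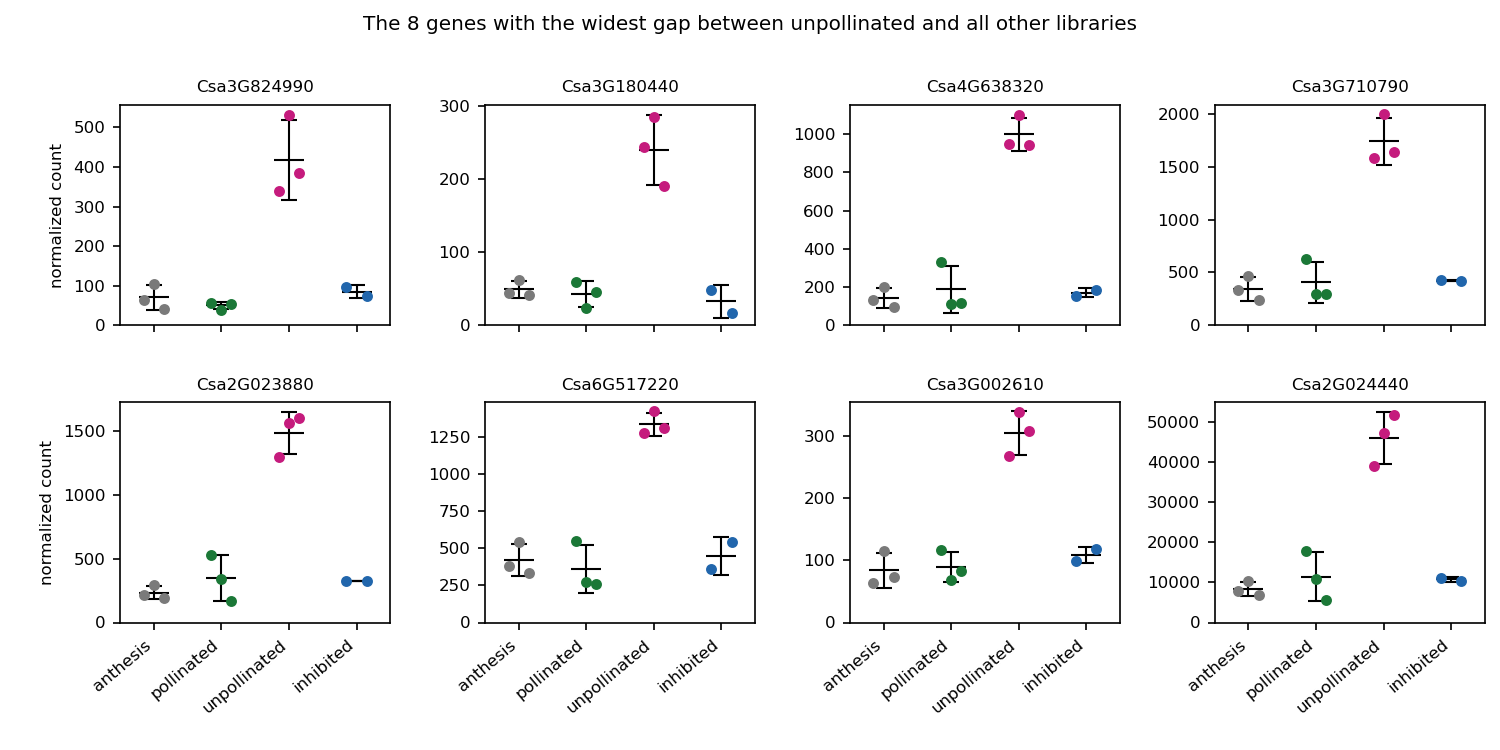
Normalized count (linear axis from 0) of the 8 genes with the widest gap between the lowest unpollinated and the highest other library, by group; points are single ovaries and black bars the group mean ± SD (n = 3, inhibited n = 2). In each panel all 3 unpollinated points lie at least 2.20-fold above every other point, and for Csa4G638320, Csa3G710790, Csa2G023880, Csa6G517220 and Csa2G024440 pollinated replicate 1 is the highest of the other points.

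A few members took a visible part of the sequenced reads. The counts are not corrected for gene length, so these shares describe reads and do not rank transcript abundance. Together the 79 genes took 0.660, 0.860 and 0.788% of gene reads in unpollinated replicates 1, 2 and 3, against 0.162 to 0.325% in the other 8 libraries, of which pollinated replicate 1 was the highest. Csa2G024440, Csa2G023940 and Csa6G518000 made up 0.320 to 0.438% of gene reads in unpollinated libraries and 0.0551 to 0.150% elsewhere; the other members together made up 0.339 to 0.422% and 0.102 to 0.175%. Csa2G024440 was the gene with the 13th, 8th and 9th most reads in unpollinated replicates 1, 2 and 3, and ranked from 74th to 636th in the other libraries.

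Csa2G024440 had 39060.1, 47407 and 51882 normalized counts in unpollinated ovaries. It had 7909.8, 10426 and 6875 at anthesis, 17751, 10904 and 5621 after pollination and 11135 and 10344 in inhibited ovaries. The pollinated ovaries differed among themselves by more than 3-fold for this gene, and replicate 1 reached the highest value outside the unpollinated group. Csa6G518000 had 17515, 28178 and 21933 without pollination, 2567, 4318 and 2144 at anthesis, 9309.9, 3052 and 3567 after pollination and 5446 and 3668 in inhibited ovaries. Pollinated replicate 1 was again the highest of the other 8 libraries, and the unpollinated mean was 7.69-fold above anthesis, 4.74-fold above pollinated and 4.95-fold above inhibited ovaries. Csa2G023940 had 17366, 24574 and 25577 without pollination, 5307, 6800.0 and 5007 at anthesis, 9434, 5499.7 and 3808 after pollination and 6112 and 6399 in inhibited ovaries. The next 3 members by reads had smaller margins: the unpollinated mean of Csa2G374630 was 2.09-fold, 2.56-fold and 2.07-fold above anthesis, pollinated and inhibited ovaries, that of Csa3G002890 3.16-fold, 2.79-fold and 2.41-fold, and that of Csa1G617370 3.26-fold, 2.28-fold and 2.42-fold.

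Other members were close to the lower end of detection outside unpollinated ovaries. Csa1G051720 had 49, 99 and 115 reads in unpollinated replicates 1, 2 and 3, but 2, 1 and 2 reads at anthesis, 3, 8 and 0 reads after pollination and 20 and 25 reads in inhibited ovaries. Its unpollinated mean on the log2 scale with a pseudocount of 1 was 34.0-fold above anthesis and 24.3-fold above pollinated ovaries, values that rest on few reads in those groups, while the excess over inhibited ovaries was 3.25-fold. Csa3G740790 had 55, 42 and 52 reads without pollination, 2, 15 and 6 at anthesis, 8, 4 and 6 after pollination and 24 and 4 in inhibited ovaries. Both inhibited libraries lay below every unpollinated one, as the rule demands, but their normalized counts were 22.5 and 5.19, far apart from each other. Csa1G502880 had its lowest levels in inhibited ovaries, with 5 and 4 reads, against 28, 85 and 101 without pollination, 11, 14 and 8 at anthesis and 7, 14 and 15 after pollination. Csa3G901150 had 13 and 1 reads in inhibited ovaries and 39, 67 and 70 without pollination.

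The unpollinated ovaries themselves differed more for these genes than for most. The median ratio of the highest to the lowest unpollinated library was 1.45-fold over the 79 genes, against 1.15-fold over the 16028 genes past the floor. It stayed under 1.5-fold for 48 members and under 2-fold for 72. The widest ratio was 3.64-fold, for Csa3G851720, which had normalized counts of 187, 425 and 116 without pollination, 63.7, 32.0 and 34.9 at anthesis, 37.3, 6.71 and 39.2 after pollination and 107 and 74.0 in inhibited ovaries. Its unpollinated replicate 3 lay only 1.09-fold above inhibited replicate 1. Csa1G502880 (3.34-fold), Csa6G498410 (2.99-fold) and Csa3G778180 (2.94-fold) followed. The narrowest ratios were those of Csa2G237150 (1.08-fold; 949.8, 981 and 908) and Csa6G517220 (1.12-fold).

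Each unpollinated ovary was then left out of the choice in turn, which gives a level that the choice did not use. The other 8 libraries were the same each time. The genes chosen were still held low in those 8 libraries, and the genes past the floor were not. Each ovary left out was also set against those 8 libraries and their group means, which the choice had used. The contrast between the shares is therefore set at least in part by the choice, to an extent that was not tested. It does not measure how well the higher level repeats. Without unpollinated replicate 1, 97 genes met the rule, and in that ovary 89 of them (91.8%) lay above all other 8 libraries, against 18.1% of the genes past the floor. Of the 97 genes, 61 (62.9%) were also at least 2-fold above all 3 other group means there, against 0.520% of genes past the floor. The rule applied without replicate 2 chose 74 genes, of which 73 (98.6%) lay above the other 8 libraries in replicate 2, against 22%, and 66 (89.2%) reached 2-fold over all 3 means, against 0.861%. Without replicate 3 it chose 90 genes, of which 88 (97.8%) lay above the others in replicate 3, against 20.4%, and 59 (65.6%) reached 2-fold, against 0.542%. The median margin over the highest other group mean was 1.34, 1.29 and 1.41 (log2) in the libraries used for the choice and 1.11, 1.58 and 1.23 in replicates 1, 2 and 3 when left out. It was therefore smaller in the ovary left out for replicates 1 and 3 and larger for replicate 2. The 3 lists shared 75, 70 and 73 genes with the 79.

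Within libraries of the same second index, all 79 genes were higher without pollination, as the choice ensures for any subset of these libraries. Unpollinated replicate 1, which shared its index with the anthesis and pollinated libraries, had median excesses of 3.07-fold over anthesis and 2.70-fold over pollinated ovaries, and 74 and 72 of the 79 genes reached 2-fold, against 1.77% and 3.92% of the genes past the floor. Unpollinated replicates 2 and 3, which shared theirs with the inhibited ovaries, had a median excess of 3.11-fold, with 77 genes at 2-fold or more, against 1.71%. Among the libraries with a raised unassigned share, unpollinated replicate 3 had median excesses of 2.73-fold over pollinated replicates 1 and 3 and 2.72-fold over inhibited replicate 2. Among the rest, unpollinated replicates 1 and 2 lay 3.43-fold above anthesis, 3.76-fold above pollinated replicate 2 and 3.10-fold above inhibited replicate 1 in the median. In lane 3 alone, the median excess over anthesis was 3.12-fold. These are the libraries that chose the genes, so the values show the size of the difference within each class and no more.

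The rule did not compare inhibited ovaries with pollinated or anthesis ovaries, and these comparisons were tested. It did hold all 3 groups below the unpollinated level, but it set no lower bound on inhibited ovaries. The share of calls among the 79 genes is therefore not independent of the choice. Both inhibited libraries carry one form of the second index and all pollinated and anthesis libraries the other, so the comparisons also run across the index; it is separated from the groups only through the unpollinated libraries. The comparisons ask whether ovaries pollinated on plants with older fruits differ on these genes from the pollinated group or from ovaries at anthesis. The labels do not say whether growth of the inhibited ovaries was held back at this age. All 79 genes passed the filter on low counts, as their level without pollination ensures. Between inhibited and pollinated ovaries 2 of the 79 genes were higher and 1 was lower at an adjusted p under 0.05 by edgeR, which left 76 without a call. Of the 18679 genes in the test, 11.3% passed in either direction, 6.54% higher and 4.81% lower, beside 3.80% of the 79 genes. Between inhibited ovaries and anthesis 1 gene was higher and 0 were lower, against 4.0% and 3.36% of all genes (7.37% in either direction). When the model included the second index, 3.05% and 0.0910% of all genes were called against pollinated ovaries and anthesis, with 1 and 0 of the 79. The order of the shares depended on the setting: without the 4 libraries rich in unassigned reads, 5 of the 79 genes (6.33%) were called against pollinated ovaries, beside 4.80% of all genes, and 6 (7.59%) against anthesis, beside 4.28%. In a fit of only the inhibited and pollinated libraries, 78 of the 79 genes passed the filter, and 2.56% of these were called, beside 7.91% of all genes. In a fit of only the inhibited and anthesis libraries it was 6.33% of the 79, beside 4.69%. At an unadjusted p under 0.05 the counts were 10 higher and 5 lower against pollinated ovaries, and 10 higher and 2 lower against anthesis; these are 18.99% and 15.19% of the 79 genes, beside 26.1% and 26.5% of all genes. DESeq2 called 3 higher and 1 lower against pollinated ovaries, and 4 higher and 1 lower against anthesis, which is 5.06% and 6.33% of the 79 genes, beside 13.5% and 12.2% of all genes. The median log2 fold change over the 79 genes was 0.02 against pollinated ovaries (0.004 over all genes) and 0.19 against anthesis (0.001 over all genes), with 42 and 54 of the 79 above 0 (53.2% and 68.4%, beside 50.6% and 50.2% of all genes).

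Only 2 inhibited libraries entered these comparisons. How far this, or the spread of the genes between ovaries, limited the calls was not tested. The median standard error among genes that were not called was 0.31 on the log2 scale in both comparisons. The size of the log2 fold change, without its sign, had a median of 0.31 against pollinated ovaries and 0.38 against anthesis, compared with 0.18 and 0.19 over all genes tested. A missed threshold does not show that the inhibited level equals either of the other two.

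**Figure D4:**
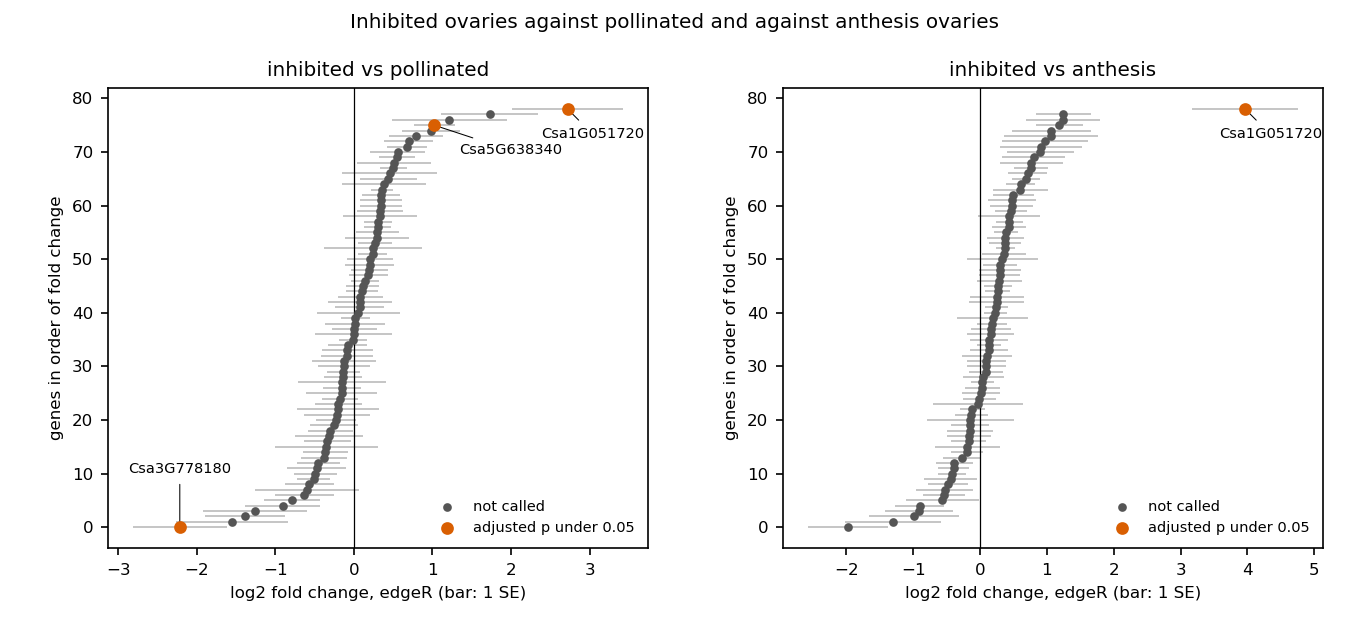
Log2 fold change (edgeR, bar 1 SE) of inhibited ovaries against pollinated ovaries (left) and against anthesis (right) for the 79 genes, each panel in its own order; orange points are genes with an adjusted p under 0.05. Most genes lie within 1 on either side of 0, and the 3 named genes are the only ones called, Csa1G051720 in both panels.

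Csa1G051720 was the member with the largest excess in inhibited ovaries. Its normalized counts were 18.8 and 32.5 there, above 3.73, 7.66 and 0.00000 in pollinated and 1.80, 0.889 and 1.84 in anthesis ovaries, with no overlap. They lay below the 52.3, 92.9 and 116 of unpollinated ovaries, as the rule demands of this gene. Against pollinated ovaries its log2 fold change of 2.72 ± 0.71 SE had an edgeR adjusted p of 0.0274, and against anthesis the value of 3.97 ± 0.80 SE had an edgeR adjusted p of 0.0158. The call against pollinated ovaries was lost without pollinated replicate 1 (2.71, edgeR adjusted p = 0.0654), pollinated replicate 3 (2.08, 0.0511), inhibited replicate 1 (3.08, 0.0672) or inhibited replicate 2 (2.29, 0.118). It was also lost in a fit of only these groups (2.72, 0.0738), when the model included the second index (1.72, 0.409) and when the 4 libraries rich in unassigned reads were dropped (1.28, 0.398). The call against anthesis was lost without anthesis replicate 3 (4.12, edgeR adjusted p = 0.0560), without inhibited replicate 2 (3.54, 0.0577) and when the model included the second index (2.96, 0.480).

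Csa5G638340 was the other gene higher in inhibited than in pollinated ovaries. It had normalized counts of 454 and 382 in inhibited and 303, 152 and 171 in pollinated ovaries. At anthesis it had 243, 285 and 216, and without pollination 1259, 1187 and 791. For this gene the inhibited libraries again lay above all pollinated and anthesis libraries, and below the unpollinated ones as the rule demands. Its log2 fold change of 1.02 ± 0.26 SE relative to pollinated ovaries had an edgeR adjusted p of 0.0253, and the 0.76 ± 0.26 SE relative to anthesis, with an edgeR adjusted p of 0.0862, was not called. The first call was lost without pollinated replicate 2 (0.84, edgeR adjusted p = 0.0826), pollinated replicate 3 (0.90, 0.0851) or inhibited replicate 1 (0.88, 0.180), and when the model included the second index (1.36, 0.105).

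Csa3G778180 showed the opposite position. Its normalized counts in inhibited ovaries were 62.0 and 156, below 763, 501 and 226 after pollination, 398, 315 and 545 at anthesis and 787, 988 and 2318 without pollination. The inhibited libraries lay under every other library, which the rule demands only against the unpollinated ones. Unpollinated replicate 1 exceeded pollinated replicate 1 by only 1.03-fold. Relative to pollinated ovaries, the inhibited level gave a log2 fold change of -2.22 ± 0.60 SE, with an edgeR adjusted p of 0.0332. It was no longer called without pollinated replicate 1 (-1.79, edgeR adjusted p = 0.0867), pollinated replicate 2 (-2.20, 0.0663) or inhibited replicate 1 (-1.66, 0.25), or when the model included the second index (-3.29, 0.0656).

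Members of the set were found under all 7 identifier prefixes, in which, in this naming scheme, the digit stands for the chromosome and the following number rises along it. Prefix Csa2G held 18 of the 79 genes, 0.923% of its 1950 genes past the floor, and the other prefixes held between 0.257% (Csa4G, 5 genes) and 0.594% (Csa3G, 20 genes). In 5 cases a member had another member at most 50 identifier numbers away, and these formed 2 runs. The run Csa7G425910, Csa7G425920 and Csa7G425930 had unpollinated normalized counts of 198, 228 and 217 for the first, 194, 247 and 283 for the second and 72.6, 107 and 64.7 for the third gene. Their unpollinated means were 2.02-fold, 3.06-fold and 3.73-fold above anthesis and 2.26-fold, 3.40-fold and 6.01-fold above inhibited ovaries. In the run Csa3G710780 and Csa3G710790, the first gene had 1319, 1513 and 1004 without pollination and 784, 362 and 408 with it, and the second 1582, 1997 and 1644 and 629, 293 and 297. Pollinated replicate 1 was the highest pollinated library for both.

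No other gene near these runs was raised as far against all 3 other groups, but some were raised to a lesser degree. Of 14 neighbours within 50 identifier numbers, 11 had an unpollinated mean of 50 or more, and 0 of these were 2-fold or more above all 3 other groups. Csa3G710770, listed just before the first run, had a difference of -0.46 (log2) between unpollinated and pollinated ovaries, and Csa3G710800, just after it, 0.03. Csa7G425900 and Csa7G425940, on either side of the other run, had -0.13 and 0.29. For Csa3G710840 the unpollinated mean was 0.79, 0.52 and 0.59 (log2) above anthesis, pollinated and inhibited ovaries. Its lowest unpollinated library, at 1068, lay just above its highest other library, inhibited replicate 2, at 1067. Csa3G710830 was 0.75, 0.35 and 0.86 above the same groups, with overlap between libraries. Csa3G710740 went the other way, at -0.44, -0.30 and -0.23. Adjacent genes can be near-identical copies, and whether these genes are copies was not checked. The use of strand in counting is also not known here, so values of genes within a run are uncertain.

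**Figure D5:**
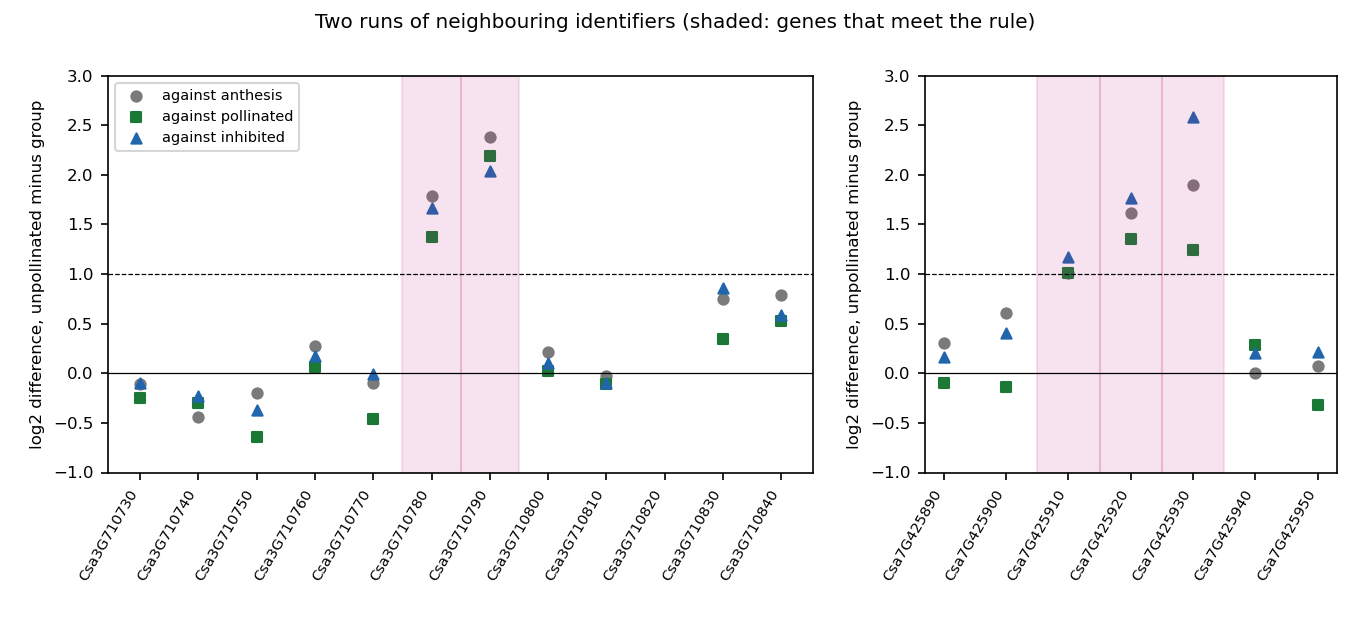
Log2 difference between the unpollinated mean and the mean of each other group for the members in runs (shaded) and for all genes within 50 identifier numbers of them, in identifier order (even spacing, not to scale); the dashed line marks the 2-fold threshold, and Csa3G710820, with 0 reads in all libraries, has no points. The shaded genes lie above the dashed line against all 3 groups, as the choice requires. No unshaded gene does, which the choice nearly ensures.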

How the data were processed

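RNA-seq of 11 ovaries was analysed from the tables the authors deposited. The deposited raw table gives unnormalized read counts of 23248 genes; its 5 further lines name no gene and entered neither library sizes nor tests (10.8 to 24.8% of a library's reads). The deposited normalized table is a signal, the counts divided by 1 factor per library (largest relative difference 5.13e-10). STAR 2.5.0a, HTSeq 0.6.1p1 and DESeq2 are named, per the submitters' processing notes, without roles; for the genome build and annotation, nothing is given in the sources used here. No column belonged to any other sample.

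The rule for the 79 genes was applied to the normalized values. Tests used the raw counts with edgeR 4.0.16 in R 4.3.3: filterByExpr by group (18679 genes kept), TMM factors and 1 quasi-likelihood fit over all 11 libraries, parametrized by group means, with Benjamini-Hochberg adjustment over all genes tested and a threshold of 0.05. The common biological coefficient of variation was 12.3%. Standard errors (SE) were derived from each log2 fold change and its F statistic. DESeq2 1.42.0 was an alternative.

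Groups came from the labels, and replicate numbers only name libraries. The genes, lists and tests were chosen with earlier results of these data known. Named genes were, by rule, the 8 with the widest gap, the 6 with the most reads, those called, the 4 most and 2 least variable without pollination, those at the thresholds, those in runs of identifiers and the 4 lowest outside unpollinated ovaries. Gene lists by function were not used, since 0 identifiers matched the reference (Cucumber_9930_V3). Other genes beside these are named as the extremes of a count or as neighbours and were chosen after their values were seen.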

Additional observations from a re-analysis of the deposited data

How the results depend on the processing

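The number of genes that met the rule was 79. It was 315 with a 1.5-fold threshold and 12 with a 4-fold threshold. Under the other alternatives it stayed within 1.5 times of 79: 78 with TMM-scaled counts, 71 with a pseudocount of 10, 92 and 67 with floors of 20 and 100, 83 where libraries could overlap, 82 with no bound on pollinated against anthesis, 74 (69 of them among the 79) within the form of the second index and 94 (62 of them among the 79) when the 4 libraries rich in unassigned reads were dropped. With 1 library left out it ran from 73 to 100.

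Calls between inhibited ovaries and the other groups were few and depended on the setting. The share of all genes called moved as well, from 11.3% down to 3.05% (second index) and 2.76% (without inhibited replicate 1) against pollinated ovaries, and from 7.37% down to 0.0910% (second index) against anthesis. Of the 79 genes, those higher than in pollinated ovaries numbered 2, or 1 in a fit of only these groups, 0 with the second index as a term, 4 without the 4 libraries, and 0 to 4 with 1 library left out (0 without pollinated replicate 3 or inhibited replicate 1, 1 without pollinated replicate 2, 4 without pollinated replicate 1). The genes were not always the same: of the 4 without the 4 libraries, and of the 4 without pollinated replicate 1, 1 was among the 2. Those lower than in pollinated ovaries numbered 1 (a different gene, Csa1G502880, when the model included the second index), and 0 to 3 with 1 library left out (0 without pollinated replicate 1, pollinated replicate 2 or inhibited replicate 1, 2 without anthesis replicate 3 or pollinated replicate 3, 3 without inhibited replicate 2). The 1 gene higher than at anthesis became 4 with DESeq2, 3 with no filter on low counts, 4 with only the groups compared, 0 with the second index as a term, 4 without the 4 libraries and 0 to 5 with 1 library left out (0 without anthesis replicate 3, 2 without unpollinated replicate 1, 4 without pollinated replicate 2, 5 without pollinated replicate 1). The 0 genes lower than at anthesis (edgeR; 2 at an unadjusted p under 0.05) became 1 with DESeq2, 1 with no filter, 1 with only the groups compared, 1 with the unassigned share as a covariate, 2 without the 4 libraries, and 0 or 1 with 1 library left out. The cause of these changes was not tested. All 4 named fold changes kept their sign under every alternative run, in 54 values with the call and in 18 without it. No paired analysis was possible because no label pairs ovaries across groups. A lone library left in a group is assumed to vary like the others.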

Other observations

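Leaving pollinated replicate 1 out of the rule added 24 genes, the most of any library, and kept 76 of the 79. One of the added genes, Csa1G073900, had a normalized count of 378 in pollinated replicate 1, a mean of 163 in the other two pollinated ovaries and at least 347 in every unpollinated ovary. Another, Csa1G278500, had 214 in pollinated replicate 1, a mean of 84.8 in the others and 205 or more without pollination. Both are examples picked after their values were seen.

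The members with the largest excess in pollinated replicate 1 were Csa2G264570, which was 3.83-fold higher there than in the mean of the other two pollinated ovaries, and Csa1G572420 (3.73-fold). In anthesis replicate 2 the same genes were 2.46-fold and 1.52-fold above the rest of their group. Over the 79 genes, 20 (25.3%) were 1.5-fold or more above the rest of the group in both ovaries, against 0.462% of genes past the floor. The genes past the floor were not chosen to differ between groups.

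Some stretches of identifiers within 25000 numbers held several members. They were looked for after the data were seen, as the span with the most members under a prefix. Each starts and ends on a member, which raises its share. In the stretch from Csa2G004690 to Csa2G027440, 7 of the 214 genes past the floor were members (3.27%), against 0.923% under Csa2G as a whole. Among the 7 were Csa2G023880, Csa2G023940 and Csa2G024440, described above for their wide gap or many reads. From Csa5G608390 to Csa5G609630, 3 of 22 genes past the floor were members (13.6%), against 0.330% under Csa5G as a whole.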
